A study of Homo sapiens with 72 samples.

Results

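The genes described here encode 10 secreted defense proteins: the acute-phase proteins SAA1 and SAA2, the siderophore binder LCN2, the protease inhibitors SLPI and PI3, the ribonuclease RNASE7, the beta-defensins DEFB1 and DEFB4A, the iron binder LTF and the cathelicidin CAMP. They were chosen as listed secreted defense genes by their GENCODE release 44 symbols, and all 10 were found among the 62266 genes of the count table. RNA sequencing covered 3 human epithelial lines, each a single line immortalized with E6E7. Ecto is the ectocervical line Ect/E6E7. Endo is the endocervical line End1/E6E7, and VK2 is VK2/E6E7 from the vagina. Within each line, cells received putrescine (PUT, 4 mM), spermidine (SPD, 400 µM), spermine (SPM, 400 µM) or no polyamine (NT) for 4 h, followed by 24 h with live Gardnerella vaginalis (GV) at 10000000 CFU in each well, or without bacteria (noGV). The 8 groups of a line are PUT+GV, SPD+GV, SPM+GV, NT+GV, PUT+noGV, SPD+noGV, SPM+noGV and NT+noGV, with 3 libraries each and 72 libraries in all. All cells were grown in a serum-free keratinocyte medium, and the lines were cultured alone, without immune or stromal cells.

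These proteins are part of the chemical barrier of the cervicovaginal mucosa. Epithelial cells release them when bacterial products or cytokines such as interleukin-1 and interleukin-17 engage NF-kB, C/EBP and STAT3, and the proteins then bind iron carriers, block neutrophil proteases or damage bacterial membranes. Neutrophils make several of them too, among them LCN2, SLPI, LTF and CAMP, and G. vaginalis is a common anaerobe of the disturbed vaginal microbiota. Putrescine is the diamine from which spermidine is built, and spermine carries a further aminopropyl group beside those of spermidine.

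SAA1 and SAA2 are near-identical copies, and their sequences are shown here because the split of reads between them bears on every value of SAA2. Their main transcripts encode 366 bases each (stop codon left out), of which 11 differ, and 51.0% of the distinct 31-base words of the main SAA1 transcript also occur in SAA2 transcripts. The 60-base coding window with the most differences holds 7 of them, printed in capitals, and lies in SAA1 (chr11:18269717-18269776, plus strand) and in SAA2 (chr11:18245456-18245515, minus strand) in GRCh38.
SAA1: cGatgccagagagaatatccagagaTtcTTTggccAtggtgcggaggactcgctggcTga
SAA2: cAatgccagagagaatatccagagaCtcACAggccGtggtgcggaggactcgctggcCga
Across the 24 groups, SAA1 took between 77.8% and 100% of the summed SAA1 and SAA2 counts of a library. The 2 genes are therefore reported side by side, and SAA2 as the less certain of them. DEFB4A shares 89.9% of its 31-base words with DEFB4B, its second genomic copy, and differs from it at 1 coding base, so its counts are less certain still.

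The RefSeq promoter table held windows for 4 of the 10 genes (LCN2, RNASE7, LTF and CAMP). LCN2, which rose with GV in each line, and RNASE7, which rose with SPM and GV in each line, are shown of these. The 250 bases before each start were searched on both strands for GGGA followed by any 4 bases and CC (kB-like), TGANTCA (AP-1) and TTNNGNAA (C/EBP-like). Matches are in capitals, and bases inside any annotated exon of the gene are left out.
LCN2 (chr9:128149265-128149440, plus strand): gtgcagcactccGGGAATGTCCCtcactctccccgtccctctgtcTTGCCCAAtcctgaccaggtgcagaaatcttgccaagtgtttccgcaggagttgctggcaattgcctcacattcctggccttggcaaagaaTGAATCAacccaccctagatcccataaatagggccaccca
RNASE7 (chr14:21042112-21042315, plus strand): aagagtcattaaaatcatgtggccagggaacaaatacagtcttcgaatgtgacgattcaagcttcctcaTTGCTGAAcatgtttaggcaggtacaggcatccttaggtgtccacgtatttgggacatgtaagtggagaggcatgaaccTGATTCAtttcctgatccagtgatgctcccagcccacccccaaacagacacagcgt
Both windows are from RefSeq on GRCh38.p14. The LCN2 window held all 3 motifs, with 2 overlapping kB-like matches on opposite strands. They begin 176 and 175 bases before the RefSeq start. That start lies past the last printed base, since exon bases were left out. The RNASE7 window held the AP-1 and C/EBP-like letters and none of the kB-like ones. Of 35116 promoter windows of the same length, 22.6% held the kB-like letters, 6.57% the AP-1 letters and 33.2% the C/EBP-like letters. A match is a description of these letters and was not tested as a binding site.

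Library totals were between 20152143 and 42767996 estimated counts, with a median of 31872239. No label or method says that the 3 libraries of a group came from separate cultures, so p-values measure the spread between these libraries, which may be technical. The library farthest from its group over all genes was Ecto SPD+noGV replicate 3, at an rms log2 distance of 0.321 against 0.250 for the next. CPM here is a gene's estimated count per 1000000 counts of its library, without regard to length. All 8 squamous markers passed the filter on low counts in each line, with KRT5 the highest. The Endo line, labelled endocervical, held 13496 to 23987 CPM of squamous markers against 3088 to 4182 CPM of simple-epithelium markers. The simple-epithelium keratin KRT7 had a median of 1071 CPM in Endo, against 13.6 CPM in Ecto and 3.84 CPM in VK2. The Müllerian factor PAX8 had 49.5 CPM in Endo, against 12.8 CPM in Ecto and 5.03 CPM in VK2. KRT19 and MUC16 also had their highest median in Endo. The keratins KRT8 and KRT18 went the other way. KRT8 had a median of 234 CPM in Endo, against 1681 CPM in Ecto and 556 CPM in VK2. KRT18 had 245 CPM in Endo, against 1292 CPM in Ecto and 515 CPM in VK2. EPCAM lay between, with 135 CPM in Endo, against 257 CPM in Ecto and 127 CPM in VK2. The summed list had 2955 to 5672 CPM in Ecto, which spans the Endo range, and 2078 to 2647 CPM in VK2. The mucin MUC5B had at most 0.493 CPM in any Endo library. Leukocyte markers summed to 55.9 to 129.6 CPM in GV libraries and 32.2 to 94.97 CPM in noGV libraries, most of it from CD68 (31.4 CPM or more). Of the other leukocyte markers, CD14 reached 12.5 CPM and MPO 2.09 CPM in a library, both in Ecto, ITGAM 1.25 CPM and AZU1 0.368 CPM. ELANE, CSF3R, CEACAM8 and FCGR3B had at most 4 counts each over the 24 libraries of any line. Fibroblast markers summed to 27.8 to 77.9 CPM in GV libraries and 13.7 to 43.03 CPM in noGV libraries, mostly COL1A1. The part of these marker shifts in the results below was not tested.

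Of the 10 genes, 6 passed the filter in Ecto (SAA1, SAA2, LCN2, SLPI, PI3 and RNASE7) and 7 in Endo and VK2, where CAMP was added. DEFB1, DEFB4A and LTF passed in no line. Per kilobase of the main transcript, the unexposed lines differed in which of these genes led. In NT+noGV Ecto cells the order was RNASE7 (58.1 ± 2.5 CPM per kb; SD, n = 3), SLPI (50.6 ± 2.3), LCN2 (21.2 ± 0.75), SAA1 (16.8 ± 2.2) and PI3 (10.5 ± 1.7), and none of these neighbours overlapped between libraries. In NT+noGV Endo cells SLPI led with 146.0 ± 4.2 CPM per kb, ahead of PI3 (28.3 ± 2.3), RNASE7 (13.2 ± 0.14), LCN2 (3.76 ± 0.19) and SAA1 (2.72 ± 0.35). In NT+noGV VK2 cells PI3 (132.2 ± 4.8 CPM per kb) and SLPI (128.4 ± 1.7) overlapped at the top, ahead of RNASE7 (21.1 ± 0.96), SAA1 (3.51 ± 0.20) and LCN2 (1.30 ± 0.23). Ecto cells thus carried the highest unexposed levels of RNASE7, LCN2 and SAA1, and VK2 cells the highest of PI3.

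**Figure D1:**
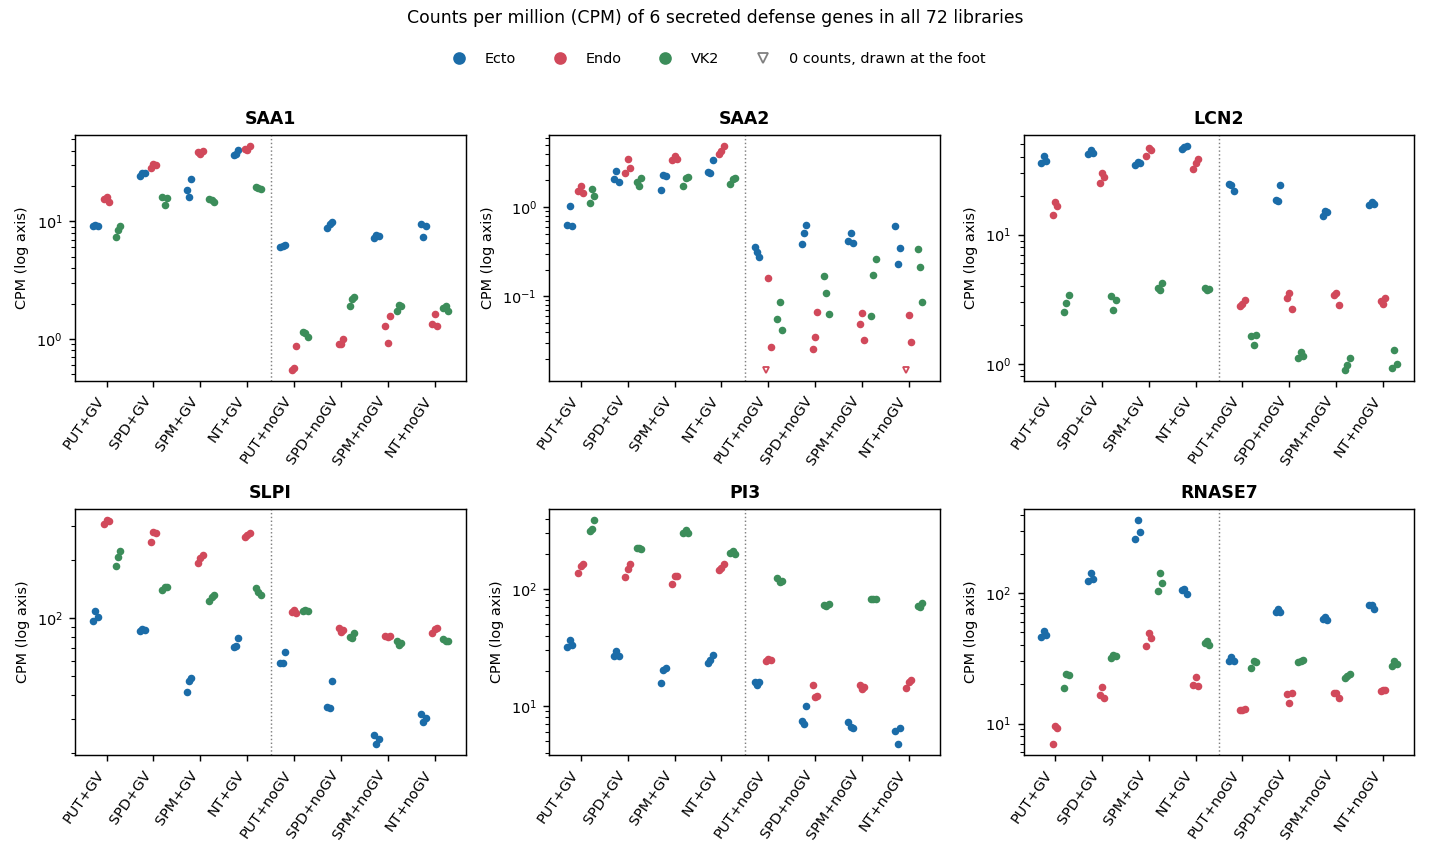
CPM of SAA1, SAA2, LCN2, SLPI, PI3 and RNASE7 on log axes in all 72 libraries, by group, with GV groups left of the dotted line and noGV groups right of it; each point is 1 library, coloured by line, and open triangles are libraries with 0 counts. SAA1 has 7.39 CPM or more in every GV library of Endo and VK2 and 2.27 CPM or less in their noGV libraries, while RNASE7 is highest in SPM+GV in each line.

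The first comparison asked how these genes responded to G. vaginalis without polyamine (NT+GV against NT+noGV). In Ecto, 6 of the 6 genes tested rose, in Endo 5 of 7 and in VK2 6 of 7, and none fell. Of all genes tested, 44.6% changed in Ecto, 54.4% in Endo and 26.4% in VK2 (20.9%, 25.7% and 13.9% upward), at an adjusted p under 0.05 by the edgeR quasi-likelihood test with Benjamini-Hochberg adjustment, which stands behind every call below. The median log2 fold change of the genes tested here was 1.51 in VK2, 1.67 in Ecto and 3.23 in Endo, beside 0.00 over all genes in each line. SAA2 in Endo and VK2 passed the filter only through GV libraries, so its place among the genes tested and its rise are not separate facts. RNA came from whole wells, and values are relative to all counts of a library. More RNA per expressing cell and a larger share of expressing cells therefore cannot be told apart.

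SAA1, an acute-phase apolipoprotein, had 41.4, 40.7 and 44.04 CPM in Endo NT+GV libraries, against 1.33, 1.62 and 1.28 CPM in NT+noGV libraries. In VK2 it had 19.5, 19.1 and 18.7 CPM in NT+GV libraries, against 1.83, 1.92 and 1.71 CPM in NT+noGV libraries. In Ecto it had 37.01, 37.2 and 40.5 CPM in NT+GV libraries, against 9.53, 7.36 and 9.17 CPM in NT+noGV libraries. The groups were far apart in each line, and the exposed levels of Endo and Ecto were close while the unexposed ones were not. The log2 fold changes were 4.82 (SE 0.10, adjusted p = 8.6e-27) in Endo, 3.42 (SE 0.10, adjusted p = 1.6e-22) in VK2 and 2.01 (SE 0.09, adjusted p = 4.3e-15) in Ecto, by edgeR.

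SAA2, its near-identical copy, followed the same direction at a lower level. It had 3.93, 4.24 and 4.90 CPM in Endo NT+GV libraries, a sum of 424 counts, against a sum of 3 counts in NT+noGV libraries, 1 of which had none. The ratio of the 2 rates is 135.8, with a 95% exact counting interval of 46.1 to 661 that covers counting error only. In Ecto SAA2 had 2.49, 2.45 and 3.43 CPM in NT+GV libraries, against 0.622, 0.231 and 0.351 CPM in NT+noGV libraries, a log2 change of 2.62 (SE 0.26, adjusted p = 1.3e-08 by edgeR). In VK2 it had 1.81, 2.08 and 2.12 CPM in NT+GV libraries, against 0.337, 0.213 and 0.0855 CPM in NT+noGV libraries, a log2 change of 3.24 (SE 0.32, adjusted p = 1.4e-09 by edgeR). With SAA1 and SAA2 summed, the SAA1 results kept their direction and call.

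LCN2, which binds bacterial siderophores and so withholds iron, rose in each line. It had 32.4, 35.7 and 38.5 CPM in Endo NT+GV libraries, against 3.09, 2.92 and 3.24 CPM in NT+noGV libraries. In VK2 it had 3.88, 3.72 and 3.82 CPM in NT+GV libraries, against 0.927, 1.28 and 0.998 CPM in NT+noGV libraries. In Ecto it had 46.3, 47.9 and 48.7 CPM in NT+GV libraries, against 16.8, 18.04 and 17.2 CPM in NT+noGV libraries. No library of one group reached into the other in any line, and the log2 fold changes were 3.46 (SE 0.11, adjusted p = 8.4e-21) in Endo, 1.87 (SE 0.16, adjusted p = 4.7e-11) in VK2 and 1.34 (SE 0.08, adjusted p = 1.5e-12) in Ecto, by edgeR.

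SLPI and PI3 (elafin) are whey-acidic-protein inhibitors that block neutrophil elastase. SLPI had 265, 271 and 278 CPM in Endo NT+GV libraries, against 84.1, 88.2 and 88.7 CPM in NT+noGV libraries. It had 143, 136 and 132 CPM in VK2 NT+GV libraries, against 77.7, 75.9 and 76.0 CPM in NT+noGV libraries. It had 70.8, 71.95 and 78.5 CPM in Ecto NT+GV libraries, against 31.6, 28.8 and 30.1 CPM in NT+noGV libraries. The log2 fold changes of SLPI were 1.57 (SE 0.04, adjusted p = 1.1e-23) in Endo, 0.87 (SE 0.05, adjusted p = 2.1e-15) in VK2 and 1.17 (SE 0.09, adjusted p = 8.5e-10) in Ecto, by edgeR. PI3 rose more than SLPI in each line by point estimate. It had 145, 152 and 164 CPM in Endo NT+GV libraries, against 14.2, 16.1 and 16.6 CPM in NT+noGV libraries. It had 202, 213 and 199 CPM in VK2 NT+GV libraries, against 72.1, 70.6 and 75.8 CPM in NT+noGV libraries. It had 23.5, 24.8 and 27.5 CPM in Ecto NT+GV libraries, against 6.14, 4.74 and 6.45 CPM in NT+noGV libraries. The log2 fold changes of PI3 were 3.23 (SE 0.11, adjusted p = 2.2e-14) in Endo, 1.51 (SE 0.06, adjusted p = 1.4e-15) in VK2 and 1.99 (SE 0.12, adjusted p = 7.1e-12) in Ecto, by edgeR.

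RNASE7, an antimicrobial ribonuclease of stratified epithelium, responded least to G. vaginalis alone among the 6 genes tested in every line. It had 105, 107 and 99.0 CPM in Ecto NT+GV libraries, against 81.1, 81.1 and 75.2 CPM in NT+noGV libraries, a log2 change of 0.28 (SE 0.09, adjusted p = 0.012 by edgeR). In VK2 it had 41.5, 43.05 and 40.4 CPM in NT+GV libraries, against 27.6, 30.1 and 28.4 CPM in NT+noGV libraries, a log2 change of 0.56 (SE 0.10, adjusted p = 0.00021 by edgeR). In Endo it had 19.9, 22.9 and 19.2 CPM in NT+GV libraries, against 17.8, 18.2 and 17.9 CPM in NT+noGV libraries, and the log2 fold change of 0.14 did not pass the test (95% interval -0.07 to 0.34, adjusted p = 0.27 by edgeR). CAMP was not called in Endo (log2 fold change 0.01, 95% interval -0.59 to 0.61) or in VK2 (0.08, -1.01 to 1.16).

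**Figure D2:**
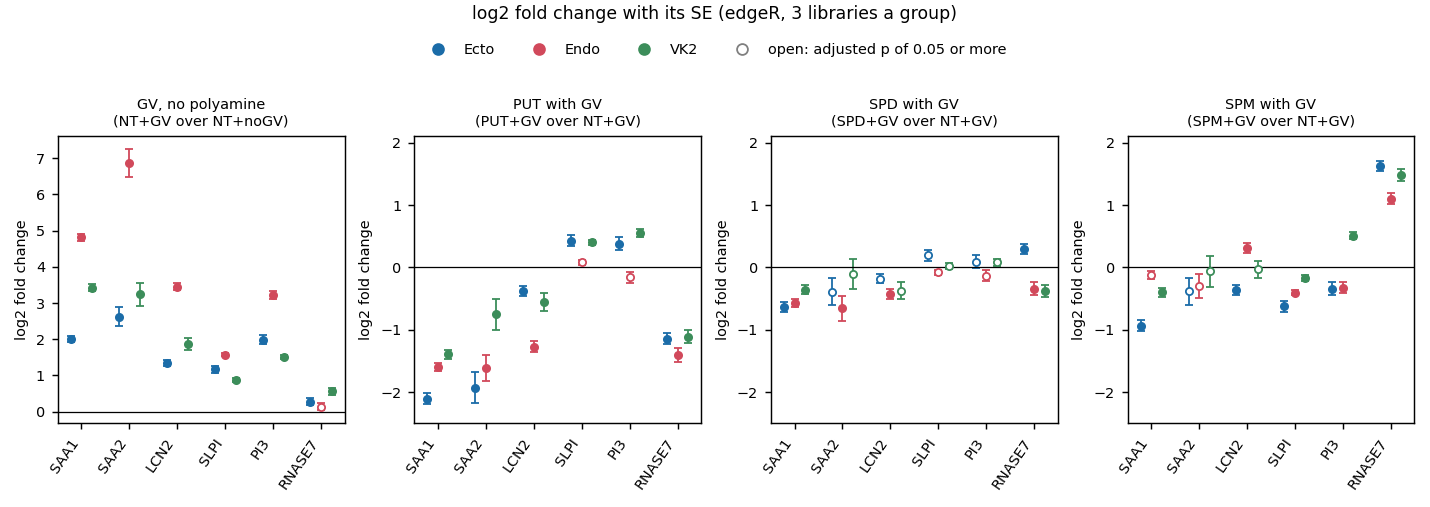
log2 fold change (points) with its SE (bars) of the 6 genes tested in every line, for GV without polyamine (left, on its own scale) and for PUT, SPD and SPM with GV; filled points passed an adjusted p of 0.05 and open ones did not. GV alone raised SAA1, SAA2, LCN2, SLPI and PI3 in each line, and the Endo SAA2 point at 6.86 rests on 3 counts in NT+noGV. With GV, RNASE7 is lower with PUT (-1.14 to -1.41) and higher with SPM (1.10 to 1.63) in each line.

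The response to G. vaginalis differed between lines for 3 of the genes by 2 or more on the log2 scale, the size set for this comparison. At that size, 1.38% of 21195 genes differed in this response between Endo and Ecto, 1.03% between VK2 and Ecto and 1.29% between Endo and VK2. Without regard to size, 5 of 7 genes differed between Endo and Ecto, 4 between VK2 and Ecto and 6 between Endo and VK2, where 28%, 27.5% and 25.8% of all genes did. The SAA1 response was larger in Endo than in Ecto by 2.80 on the log2 scale (SE 0.14, adjusted p = 3.8e-25), and that of LCN2 by 2.098 (SE 0.13, adjusted p = 1.8e-20). The SAA2 response was larger in Endo than in Ecto by 4.23 (SE 0.61, adjusted p = 7.9e-08) and than in VK2 by 3.63 (SE 0.69, adjusted p = 2.6e-05). These are interaction terms of edgeR over all 72 libraries, and the SAA2 values rest on the 3 counts in Endo NT+noGV. Unexposed levels also differed by 2 or more for some genes, as they did for 11.7% of all genes between Endo and Ecto, 11.7% between VK2 and Ecto and 9.64% between Endo and VK2 (63.9%, 63.8% and 59.6% without regard to size). SAA1 was lower in Endo than in Ecto by 2.52 on the log2 scale (SE 0.12) and in VK2 than in Ecto by 2.12 (SE 0.11). LCN2 was lower in Endo than in Ecto by 2.37 (SE 0.11) and in VK2 than in Ecto by 3.88 (SE 0.13), and RNASE7 was lower in Endo than in Ecto by 2.02 (SE 0.10). PI3 was higher in VK2 than in Ecto by 3.79 (SE 0.11), and lower in Endo than in VK2 by 2.26 (SE 0.10). SAA2, with its 3 counts in Endo NT+noGV libraries, was lower in Endo than in Ecto by 3.44 (SE 0.57, adjusted p = 3.3e-07) and than in VK2 by 2.64 (SE 0.66, adjusted p = 0.0004), by edgeR. The ratio of rates was 0.0761 for Endo over Ecto (95% exact counting interval 0.0151 to 0.237) and 0.151 for Endo over VK2 (0.0289 to 0.506). Without replicate 1 of every group, the difference from VK2 was -1.61 (adjusted p = 0.11). CAMP, the cathelicidin precursor, had 41 counts in Endo and 25 in VK2 NT+noGV libraries, against 3 in those of Ecto. The ratio of rates was 15.9 for Endo over Ecto (95% exact counting interval 5.09 to 80.5) and 9.18 for VK2 over Ecto (2.802 to 47.5), and the log2 differences were 3.91 (SE 0.62, adjusted p = 1.1e-07) and 3.18 (SE 0.68, adjusted p = 3.4e-05), by edgeR. CAMP passed the filter on low counts in Endo and VK2 and not in Ecto. Its place among the genes tested between lines and its higher level in Endo and VK2 are therefore not separate facts.

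The next comparisons asked what each polyamine did in the presence of the bacterium (polyamine+GV against NT+GV). Their reference libraries are the NT+GV libraries that also carry the GV comparison, so the values of the comparisons are set side by side and no overlap between them is given. With PUT, 2 genes rose and 4 fell in Ecto, 4 fell in Endo, and 2 rose and 4 fell in VK2, where 56.3%, 56.1% and 60.4% of all genes changed. The same 4 genes, SAA1, SAA2, LCN2 and RNASE7, fell in each line. The PUT effect differed for 4 of 7 genes between Endo and Ecto, 2 between VK2 and Ecto and 3 between Endo and VK2. Of all genes, 24.8% differed in the PUT effect between Endo and Ecto, 35% between VK2 and Ecto and 22.4% between Endo and VK2.

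SAA1 had 9.08, 9.31 and 9.19 CPM in Ecto PUT+GV libraries, against 37.01, 37.2 and 40.5 CPM in NT+GV libraries. It had 15.5, 16.03 and 14.6 CPM in Endo PUT+GV libraries, against 41.4, 40.7 and 44.04 CPM in NT+GV libraries. It had 7.39, 8.41 and 9.07 CPM in VK2 PUT+GV libraries, against 19.5, 19.1 and 18.7 CPM in NT+GV libraries. Every PUT+GV library was below every NT+GV library of its line, with log2 fold changes of -1.40 (SE 0.08, adjusted p = 4.1e-16) in VK2, -2.10 (SE 0.09, adjusted p = 1.7e-15) in Ecto and -1.59 (SE 0.07, adjusted p = 3.8e-18) in Endo, by edgeR. SAA2 had 0.625, 1.03 and 0.611 CPM in Ecto PUT+GV libraries, against 2.49, 2.45 and 3.43 CPM in NT+GV libraries. Its log2 fold changes were -1.93 (SE 0.25) in Ecto, -1.62 (SE 0.21) in Endo and -0.75 (SE 0.25, adjusted p = 0.0098 by edgeR) in VK2. Without VK2 PUT+GV replicate 1, the VK2 value was -0.64 and its adjusted p 0.051 by edgeR.

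LCN2 fell furthest in Endo, where it had 14.2, 18.1 and 16.6 CPM in PUT+GV libraries, against 32.4, 35.7 and 38.5 CPM in NT+GV libraries, a log2 change of -1.27 (SE 0.08, adjusted p = 3.5e-13 by edgeR). The log2 fold changes of LCN2 were -0.38 (SE 0.08, adjusted p = 0.00015) in Ecto and -0.55 (SE 0.14, adjusted p = 0.00096) in VK2, by edgeR. RNASE7 had 46.2, 51.6 and 48.1 CPM in Ecto PUT+GV libraries, against 105, 107 and 99.0 CPM in NT+GV libraries. It had 6.96, 9.59 and 9.26 CPM in Endo PUT+GV libraries, against 19.9, 22.9 and 19.2 CPM in NT+GV libraries. It had 18.8, 23.8 and 23.4 CPM in VK2 PUT+GV libraries, against 41.5, 43.05 and 40.4 CPM in NT+GV libraries. The groups did not overlap, and the log2 fold changes of RNASE7 were -1.11 (SE 0.10, adjusted p = 1.1e-08) in VK2, -1.14 (SE 0.09, adjusted p = 2.6e-10) in Ecto and -1.41 (SE 0.11, adjusted p = 2.2e-10) in Endo, by edgeR. In each line the PUT+GV levels of RNASE7 were also below those of every NT+noGV library.

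The protease inhibitors did not follow the other 4. SLPI had 96.2, 109.5 and 102 CPM in Ecto PUT+GV libraries, against 70.8, 71.95 and 78.5 CPM in NT+GV libraries, a log2 change of 0.43 (SE 0.09, adjusted p = 0.00028 by edgeR). It had 187, 208 and 224 CPM in VK2 PUT+GV libraries, against 143, 136 and 132 CPM in NT+GV libraries, a log2 change of 0.40 (SE 0.05, adjusted p = 5.5e-09 by edgeR). PI3 had 32.1, 36.6 and 33.3 CPM in Ecto PUT+GV libraries, against 23.5, 24.8 and 27.5 CPM in NT+GV libraries, a log2 change of 0.38 (SE 0.10, adjusted p = 0.0033 by edgeR). It had 311, 324 and 389 CPM in VK2 PUT+GV libraries, against 202, 213 and 199 CPM in NT+GV libraries, a log2 change of 0.55 (SE 0.06, adjusted p = 9e-09 by edgeR). Both inhibitors rose in Ecto and VK2. In Endo neither passed the test, with log2 fold changes of 0.09 for SLPI (95% interval 0.00 to 0.17) and -0.16 for PI3 (-0.35 to 0.03). The differences between lines were tested by edgeR over all 72 libraries. For SLPI, Endo minus Ecto was -0.30 (adjusted p = 0.01) and Endo minus VK2 -0.32 (adjusted p = 0.0058). For PI3 they were -0.50 (adjusted p = 0.0024) and -0.71 (adjusted p = 3.9e-06).

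With SPM, 1 gene rose and 4 fell in Ecto, 2 rose and 2 fell in Endo, and 2 rose and 2 fell in VK2, where 56%, 43% and 58.3% of all genes changed. RNASE7 was the gene that rose in each line. It had 259, 364 and 293 CPM in Ecto SPM+GV libraries, against 105, 107 and 99.0 CPM in NT+GV libraries. It had 39.1, 49.6 and 45.1 CPM in Endo SPM+GV libraries, against 19.9, 22.9 and 19.2 CPM in NT+GV libraries. It had 104, 142 and 119.7 CPM in VK2 SPM+GV libraries, against 41.5, 43.05 and 40.4 CPM in NT+GV libraries. The 3 SPM+GV libraries were the highest of their line in each case, with log2 fold changes of 1.48 (SE 0.09, adjusted p = 3e-11) in VK2, 1.63 (SE 0.09, adjusted p = 2.8e-13) in Ecto and 1.10 (SE 0.09, adjusted p = 2e-09) in Endo, by edgeR.

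SLPI fell with SPM in each line. It had 41.5, 46.96 and 48.6 CPM in Ecto SPM+GV libraries, against 70.8, 71.95 and 78.5 CPM in NT+GV libraries, and 194, 207 and 213 CPM in Endo SPM+GV libraries, against 265, 271 and 278 CPM in NT+GV libraries. Its log2 fold changes were -0.17 (SE 0.05, adjusted p = 0.002) in VK2, -0.63 (SE 0.09, adjusted p = 4.3e-06) in Ecto and -0.41 (SE 0.04, adjusted p = 1e-09) in Endo, by edgeR. SAA1 had 18.3, 16.2 and 22.9 CPM in Ecto SPM+GV libraries, against 37.01, 37.2 and 40.5 CPM in NT+GV libraries, a log2 change of -0.94 (SE 0.08, adjusted p = 7.2e-10 by edgeR). The SAA1 change was -0.40 (SE 0.07, adjusted p = 2.6e-05 by edgeR) in VK2, while in Endo -0.12 did not pass the test (95% interval -0.25 to 0.01). SAA2 passed in no line, with log2 fold changes of -0.38 in Ecto (95% interval -0.84 to 0.07), -0.30 in Endo (-0.69 to 0.10) and -0.06 in VK2 (-0.56 to 0.44).

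PI3 and LCN2 moved in opposite directions between lines with SPM. PI3 had 300.3, 317 and 299 CPM in VK2 SPM+GV libraries, against 202, 213 and 199 CPM in NT+GV libraries, a log2 change of 0.51 (SE 0.06, adjusted p = 4.3e-08 by edgeR). PI3 fell in Endo by 0.33 on the log2 scale (SE 0.09, adjusted p = 0.0072 by edgeR). In Ecto it had 15.8, 20.4 and 21.04 CPM in SPM+GV libraries, against 23.5, 24.8 and 27.5 CPM in NT+GV libraries, and fell by 0.34 on the log2 scale (SE 0.11, adjusted p = 0.011 by edgeR). Without Ecto SPM+GV replicate 1, the Ecto value was -0.21 and its adjusted p 0.11 by edgeR. LCN2 had 40.2, 46.96 and 44.96 CPM in Endo SPM+GV libraries, against 32.4, 35.7 and 38.5 CPM in NT+GV libraries, a log2 change of 0.31 (SE 0.08, adjusted p = 0.002 by edgeR). It had 34.3, 36.2 and 35.99 CPM in Ecto SPM+GV libraries, against 46.3, 47.9 and 48.7 CPM in NT+GV libraries, and fell by 0.36 on the log2 scale (SE 0.08, adjusted p = 0.00036 by edgeR). The differences themselves passed the test in edgeR over all 72 libraries, where 31.6% of all genes differed in the SPM effect between VK2 and Ecto, 24.6% between Endo and VK2 and 25.8% between Endo and Ecto. For PI3 the SPM effect was higher in VK2 than in Ecto by 0.83 on the log2 scale (SE 0.13, adjusted p = 1.2e-06) and lower in Endo than in VK2 by 0.78 (SE 0.12, adjusted p = 5.7e-07). For LCN2 it was higher in Endo than in Ecto by 0.71 (SE 0.11, adjusted p = 4.1e-07).

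With SPD the changes were smaller. In Ecto 1 gene rose and 1 fell, in Endo 4 fell and in VK2 2 fell, where 13.1%, 13.9% and 12.7% of all genes changed, and none of these changes reached 2-fold. SAA1 fell in each line. It had 24.5, 25.8 and 25.8 CPM in Ecto SPD+GV libraries, against 37.01, 37.2 and 40.5 CPM in NT+GV libraries, and 28.4, 30.9 and 29.99 CPM in Endo SPD+GV libraries, against 41.4, 40.7 and 44.04 CPM in NT+GV libraries. Its log2 fold changes were -0.36 (SE 0.07, adjusted p = 0.001) in VK2, -0.64 (SE 0.08, adjusted p = 2e-05) in Ecto and -0.56 (SE 0.06, adjusted p = 3.7e-07) in Endo, by edgeR. In Endo LCN2 fell by 0.42 on the log2 scale (SE 0.08, adjusted p = 0.00053) and SAA2 by 0.66 (SE 0.20, adjusted p = 0.022), by edgeR. The SAA2 call was lost without Endo NT+GV replicate 3 (-0.59, adjusted p = 0.081 by edgeR), SPD+GV replicate 1 (-0.55, adjusted p = 0.10) or SPD+GV replicate 3 (-0.64, adjusted p = 0.072).

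RNASE7 differed in direction between lines with SPD. It had 124, 142 and 128 CPM in Ecto SPD+GV libraries, against 105, 107 and 99.0 CPM in NT+GV libraries, a log2 change of 0.30 (SE 0.09, adjusted p = 0.026 by edgeR). It fell in Endo by 0.34 (SE 0.10, adjusted p = 0.025) and in VK2 by 0.38 (SE 0.10, adjusted p = 0.012) on the log2 scale, by edgeR. The SPD effect on RNASE7 was lower in Endo than in Ecto by 0.63 (SE 0.14, adjusted p = 0.016) and lower in VK2 than in Ecto by 0.66 (SE 0.14, adjusted p = 0.0013), by edgeR over all 72 libraries, where 0.722%, 5.16% and, between Endo and VK2, 1.13% of all genes differed. These calls rest on few libraries. The Ecto call was lost without NT+GV replicate 1, 2 or 3 or SPD+GV replicate 2 (0.32, 0.32, 0.26 and 0.23, adjusted p = 0.063, 0.051, 0.093 and 0.13 by edgeR). The Endo call was lost without NT+GV replicate 1 or 2 or SPD+GV replicate 1 or 3 (-0.37, -0.26, -0.31 and -0.30, adjusted p = 0.051, 0.13, 0.080 and 0.095 by edgeR). The VK2 call was lost without NT+GV replicate 2 (-0.35, adjusted p = 0.051 by edgeR). With replicate 3 left out of every group, the Endo minus Ecto difference had an adjusted p of 0.19 and the VK2 minus Ecto difference one of 0.057 by edgeR, and with replicate 1 left out the Endo minus Ecto one was 0.069.

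The same polyamines were also compared without bacteria (polyamine+noGV against NT+noGV). With PUT, 3 genes rose and 2 fell in Ecto, 2 rose and 2 fell in Endo, and 3 rose and 2 fell in VK2, where 46.8%, 31.9% and 45% of all genes changed. PI3 had 15.9, 15.2 and 15.98 CPM in Ecto PUT+noGV libraries, against 6.14, 4.74 and 6.45 CPM in NT+noGV libraries. It had 24.2, 25.4 and 24.7 CPM in Endo PUT+noGV libraries, against 14.2, 16.1 and 16.6 CPM in NT+noGV libraries. It had 123, 115 and 118 CPM in VK2 PUT+noGV libraries, against 72.1, 70.6 and 75.8 CPM in NT+noGV libraries. The protease inhibitors thus rose in all 3 lines. The log2 fold changes of PI3 were 0.65 (SE 0.06, adjusted p = 4.8e-09) in VK2, 1.33 (SE 0.12, adjusted p = 6.6e-09) in Ecto and 0.68 (SE 0.12, adjusted p = 0.00028) in Endo, by edgeR. Those of SLPI were 0.46 (SE 0.05, adjusted p = 2e-09) in VK2, 0.93 (SE 0.09, adjusted p = 2.8e-08) in Ecto and 0.33 (SE 0.04, adjusted p = 4.2e-07) in Endo.

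SAA1 fell with PUT in the absence of bacteria as well. It had 0.546, 0.560 and 0.874 CPM in Endo PUT+noGV libraries, against 1.33, 1.62 and 1.28 CPM in NT+noGV libraries. Its log2 fold changes were -0.76 (SE 0.15, adjusted p = 8.2e-05) in VK2, -0.58 (SE 0.10, adjusted p = 3.9e-05) in Ecto and -1.07 (SE 0.19, adjusted p = 4.5e-05) in Endo, by edgeR. RNASE7 had 30.3, 32.3 and 30.1 CPM in Ecto PUT+noGV libraries, against 81.1, 81.1 and 75.2 CPM in NT+noGV libraries, a log2 change of -1.44 (SE 0.09, adjusted p = 2.2e-11 by edgeR). In Endo RNASE7 fell by 0.47 on the log2 scale (SE 0.10, adjusted p = 0.0012 by edgeR), and in VK2 -0.05 did not pass the test (95% interval -0.26 to 0.16). LCN2 rose in Ecto by 0.35 on the log2 scale (SE 0.08, adjusted p = 0.0013 by edgeR). In VK2 the change of LCN2 was 0.51 (SE 0.17, adjusted p = 0.015 by edgeR), a call that was lost without NT+noGV replicate 1 (0.41, adjusted p = 0.092), NT+noGV replicate 3 (0.47, 0.052) or PUT+noGV replicate 1 (0.47, 0.061), and by DESeq2 (0.52, 0.056) or without the filter (0.51, 0.064). SAA2 in VK2 fell by 1.74 (SE 0.54, adjusted p = 0.0091 by edgeR), with 6 counts in PUT+noGV libraries against 21 in NT+noGV libraries, and without NT+noGV replicate 1 the value was -1.19 (adjusted p = 0.19).

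With SPM and no bacteria, 2 genes fell in Ecto, 1 fell in Endo, and 1 rose and 1 fell in VK2, where 23.5%, 18.1% and 33% of all genes changed. RNASE7, which rose with SPM in the presence of bacteria, fell with SPM in their absence in Ecto and VK2, and its -0.12 in Endo did not pass the test. It had 63.1, 65.8 and 62.8 CPM in Ecto SPM+noGV libraries, against 81.1, 81.1 and 75.2 CPM in NT+noGV libraries, a log2 change of -0.30 (SE 0.09, adjusted p = 0.015 by edgeR). It had 22.4, 23.02 and 23.9 CPM in VK2 SPM+noGV libraries, against 27.6, 30.1 and 28.4 CPM in NT+noGV libraries, a log2 change of -0.28 (SE 0.10, adjusted p = 0.038 by edgeR). The SPM+noGV libraries lay below every NT+noGV library in both lines. The Ecto call was lost without NT+noGV replicate 1 (-0.29, adjusted p = 0.057 by edgeR) or SPM+noGV replicate 1 (-0.29, adjusted p = 0.053). The VK2 call was lost on leaving out 5 of the 6 libraries in turn, all but NT+noGV replicate 1, with values of -0.25 to -0.31 and adjusted p-values of 0.056 to 0.12. SLPI fell in Ecto by 0.37 on the log2 scale (SE 0.10, adjusted p = 0.0081 by edgeR). The smaller calls of SLPI in Endo (-0.13, adjusted p = 0.041) and of PI3 in VK2 (0.20, adjusted p = 0.017) did not hold without single libraries, which gave adjusted p-values up to 0.16 and 0.077 (SLPI in Endo without any NT+noGV or SPM+noGV library but NT+noGV replicate 1, and PI3 in VK2 without NT+noGV replicate 1 or 2 or SPM+noGV replicate 3). The SLPI call in Endo was also lost with DESeq2 size factors in edgeR (0.058), in DESeq2 (0.055) and without the filter (0.10).

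With SPD and no bacteria, 0 genes were called by edgeR in any line, where 0.46% of all genes in VK2, 0.303% in Ecto and 0.181% in Endo changed. At an unadjusted p under 0.05 there were 3 in Ecto, 2 in Endo and 0 in VK2, and DESeq2 called 2, 0 and 0. The pair called by DESeq2 in Ecto was SLPI (log2 fold change 0.37, adjusted p = 0.022) and PI3 (0.49, adjusted p = 0.028). SLPI had 34.6, 34.3 and 47.1 CPM in Ecto SPD+noGV libraries, against 31.6, 28.8 and 30.1 CPM in NT+noGV libraries, and the high value is that of replicate 3, the library farthest from its group over all genes.

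**Figure D3:**
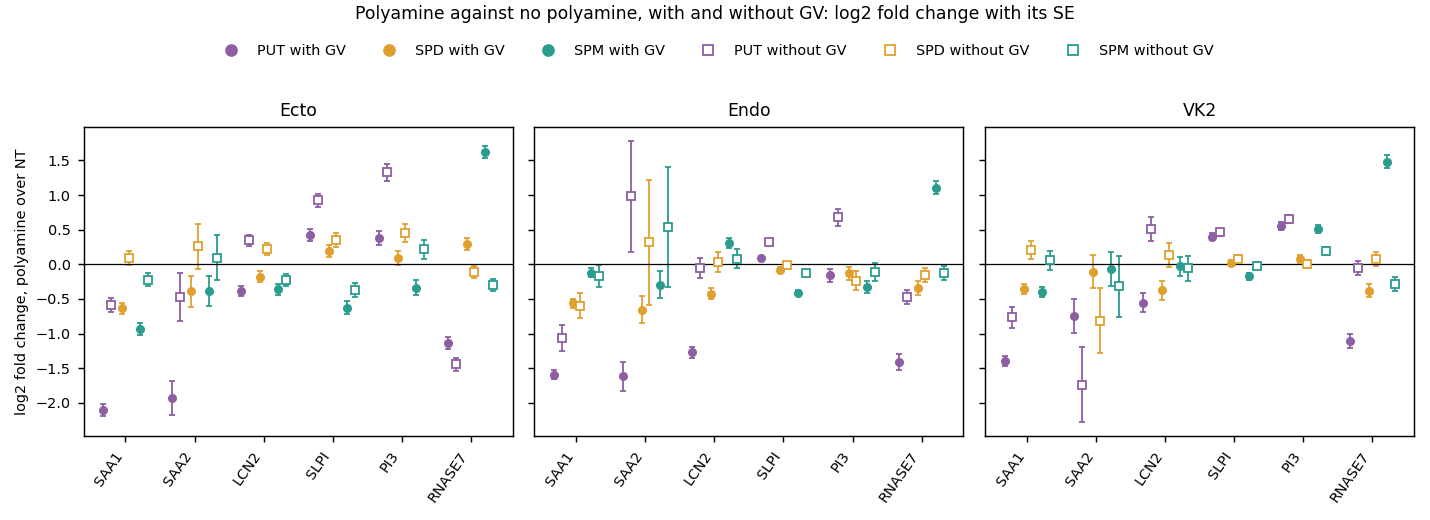
log2 fold change of each polyamine over no polyamine (points) with its SE (bars), with GV (filled circles) and without GV (open squares), for the 6 genes in each line. For RNASE7 the SPM point is above 1 with GV and below 0 without it in each line. The PUT points of SLPI and PI3 are lower with GV than without it, a difference called in Ecto and Endo and not in VK2.

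Whether a polyamine effect depended on the bacterium was tested as an interaction (the effect with GV minus the effect without GV). For SPM, RNASE7 had interaction values of 1.77 (SE 0.14, adjusted p = 5.5e-09) in VK2, 1.93 (SE 0.12, adjusted p = 2.9e-11) in Ecto and 1.23 (SE 0.14, adjusted p = 4.8e-07) in Endo on the log2 scale, by edgeR. RNASE7 was the gene called upward in each line, where 38.9% of all genes in VK2, 36.3% in Ecto and 24.3% in Endo had a called interaction. SAA1 had negative SPM interactions in Ecto (-0.72, SE 0.13, adjusted p = 0.00011) and in VK2 (-0.46, SE 0.15, adjusted p = 0.017 by edgeR). The VK2 one was lost without NT+noGV replicate 3, SPM+noGV replicate 2 or SPM+noGV replicate 3 (-0.42, -0.43 and -0.44, adjusted p = 0.059, 0.052 and 0.052), and by DESeq2 (-0.44, 0.080) or without the filter (-0.45, 0.052). PI3 had a negative SPM interaction in Ecto (-0.56, SE 0.17, adjusted p = 0.014) and a positive one in VK2 (0.31, SE 0.08, adjusted p = 0.0047), and SLPI a negative one in Endo (-0.28, SE 0.06, adjusted p = 0.00058), by edgeR.

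For PUT, a called interaction was found for 3 genes in VK2, 5 in Ecto and 5 in Endo, all negative, where 27.6% of all genes in VK2, 26.4% in Ecto and 34.8% in Endo were called (17.8% in VK2, 12% in Ecto and 19.9% in Endo downward). LCN2 was among them in each line, with -1.06 (SE 0.22, adjusted p = 0.00043) in VK2, -0.73 (SE 0.11, adjusted p = 3.1e-05) in Ecto and -1.22 (SE 0.17, adjusted p = 1.4e-06) in Endo, by edgeR. PI3 had -0.95 (SE 0.16) in Ecto and -0.84 (SE 0.15) in Endo, and SAA1 -1.52 (SE 0.14) in Ecto and -0.63 (SE 0.17) in VK2. RNASE7 had -0.94 (SE 0.15) in Endo and -1.06 (SE 0.14) in VK2, while its 0.30 in Ecto did not pass the test (95% interval 0.04 to 0.57, adjusted p = 0.086). SLPI had -0.50 (SE 0.13) in Ecto and -0.24 (SE 0.06) in Endo. The called interaction of SAA2 in Endo (-2.60, SE 0.85, adjusted p = 0.017 by edgeR) was -0.67 (adjusted p = 0.86) without PUT+noGV replicate 2 and -2.13 (adjusted p = 0.067) without NT+noGV replicate 1. That of SAA2 in Ecto (-1.45, SE 0.43, adjusted p = 0.014) had an adjusted p of 0.052 without PUT+noGV replicate 1. For SPD, SAA1 in Ecto had the single called interaction (-0.73, SE 0.13, adjusted p = 0.0039 by edgeR), where 0.352% of all genes in VK2, 3.13% in Ecto and 3.45% in Endo were called. The 0 calls in Endo and VK2 stand beside 1 and 3 genes at an unadjusted p under 0.05, and 0 and 1 called by DESeq2.

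Spermine and spermidine were given at the same dose of 400 µM, and were compared directly in 6 settings, with and without GV in each line. Putrescine was given at 4 mM and is not set against them. With GV, 1 gene was higher and 3 lower with SPM than with SPD in Ecto, and 3 were higher and 1 lower in Endo and in VK2, where 53.8%, 44.6% and 52.6% of all genes differed. RNASE7 was higher with SPM by 1.33 on the log2 scale in Ecto (SE 0.09, adjusted p = 1.1e-11), by 1.44 in Endo (SE 0.10, adjusted p = 3e-11) and by 1.86 in VK2 (SE 0.09, adjusted p = 1.6e-12), by edgeR. In VK2, for example, RNASE7 had 104, 142 and 119.7 CPM in SPM+GV libraries, against 32.1, 33.4 and 33.1 CPM in SPD+GV libraries. SLPI was lower with SPM in each line, by point estimates of -0.82 in Ecto (SE 0.09, adjusted p = 9.3e-08), -0.33 in Endo (SE 0.04, adjusted p = 8.1e-08) and -0.20 in VK2 (SE 0.05, adjusted p = 0.00061).

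The other genes differed between the compounds in some lines. LCN2 was higher with SPM in Endo by 0.73 (SE 0.08, adjusted p = 1.4e-08 by edgeR) and in VK2 by 0.35 (SE 0.14, adjusted p = 0.038). The VK2 call was lost on leaving out SPD+GV replicate 2 or 3 or any SPM+GV library, with values of 0.25 to 0.37 and adjusted p-values of 0.050 to 0.18, and by DESeq2 (0.36, 0.086) or without the filter (0.34, 0.13). SAA1 was higher with SPM in Endo by 0.44 (SE 0.06, adjusted p = 1.3e-06) and lower in Ecto by point estimate -0.30 (SE 0.09, adjusted p = 0.0048), which without Ecto SPM+GV replicate 2 was -0.20 (adjusted p = 0.061). PI3 was lower with SPM in Ecto (-0.43, SE 0.11, adjusted p = 0.0018) and higher in VK2 (0.43, SE 0.06, adjusted p = 8.3e-07). Differences that did not pass with GV were those of SAA2 in each line (95% intervals -0.46 to 0.47 in Ecto, -0.04 to 0.77 in Endo and -0.45 to 0.54 in VK2), LCN2 in Ecto (-0.34 to -0.02), PI3 in Endo (-0.39 to -0.0035) and SAA1 in VK2 (-0.20 to 0.11).

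**Figure D4:**
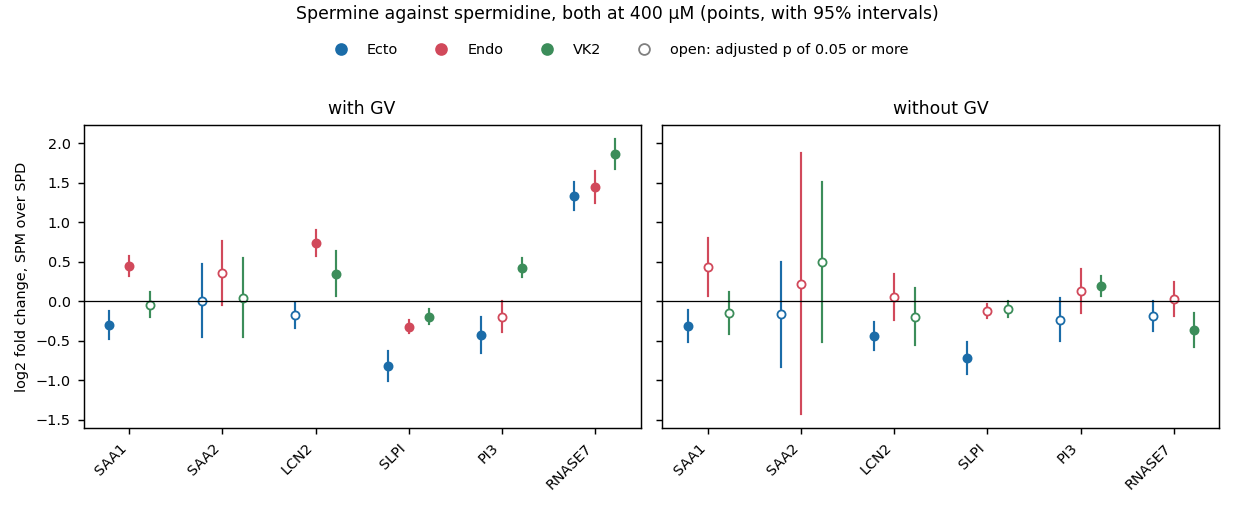
log2 fold change of SPM over SPD at 400 µM (points) with its 95% interval (lines), with GV on the left and without GV on the right; filled points passed an adjusted p of 0.05. RNASE7 lies between 1.33 and 1.86 with GV and between -0.36 and 0.03 without GV.

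Without GV, 3 genes were lower with SPM than with SPD in Ecto, 0 differed in Endo, and 1 was higher and 1 lower in VK2, where 20.4%, 12.6% and 28.3% of all genes differed. In Endo 2 genes had an unadjusted p under 0.05 and DESeq2 called 0. In Ecto the 3 were SLPI (-0.72, SE 0.10, adjusted p = 1.6e-05), LCN2 (-0.44, SE 0.09, adjusted p = 0.0006) and SAA1 (-0.31, SE 0.10, adjusted p = 0.028), by edgeR. Without Ecto SPD+noGV replicate 3, the library that stands apart, SAA1 had -0.28 (adjusted p = 0.068), and its call was also lost without SPD+noGV replicate 2 or SPM+noGV replicate 1 or 3 (-0.30, -0.29 and -0.32, adjusted p = 0.065, 0.090 and 0.064). In VK2 RNASE7 was lower with SPM (-0.36, SE 0.10, adjusted p = 0.011), and PI3 was higher (0.19, SE 0.06, adjusted p = 0.024), a call lost on leaving out any one of the 6 libraries (0.18 to 0.20, adjusted p = 0.052 to 0.084). RNASE7 in Endo gave a 95% interval of -0.18 to 0.24.

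The 4 sparse genes stayed near the detection limit at this depth. DEFB4A, an inducible beta-defensin, had 1 to 8 counts in each of the 12 VK2 GV libraries, 40 in sum, against 1 count in 1 of the 12 VK2 noGV libraries. In VK2 NT+GV libraries it had 3, 1 and 4 counts, against 0 in NT+noGV libraries, and the 95% exact counting interval of the ratio begins at 1.91. Without the filter on low counts, edgeR gave an adjusted p of 0.029 for this comparison. In Ecto and Endo DEFB4A had 7 and 6 counts over 12 GV libraries, against 0 counts over 12 noGV libraries each. LTF, which binds free iron, had 58 counts over 12 GV libraries in Ecto, against 14 over 12 noGV libraries. In Endo LTF had 25 counts in GV libraries against 3, and in VK2 31 against 17. These sums run over all pretreatments. For NT+GV against NT+noGV without the filter, edgeR gave LTF an adjusted p of 0.48 in Ecto, 0.25 in Endo and 0.72 in VK2. DEFB1, a beta-defensin made constitutively in many epithelia, had at most 9 counts in any library. CAMP had 11 to 26 counts in Endo GV libraries and 9 to 25 in Endo noGV libraries, and passed the test in no comparison between groups within Endo or within VK2. Without the filter, the further call among these 4 genes was CAMP with PUT and no bacteria in Ecto (8, 5 and 4 counts in PUT+noGV libraries, against 2, 1 and 0 in NT+noGV libraries, adjusted p = 0.033 by edgeR).

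**Figure D5:**
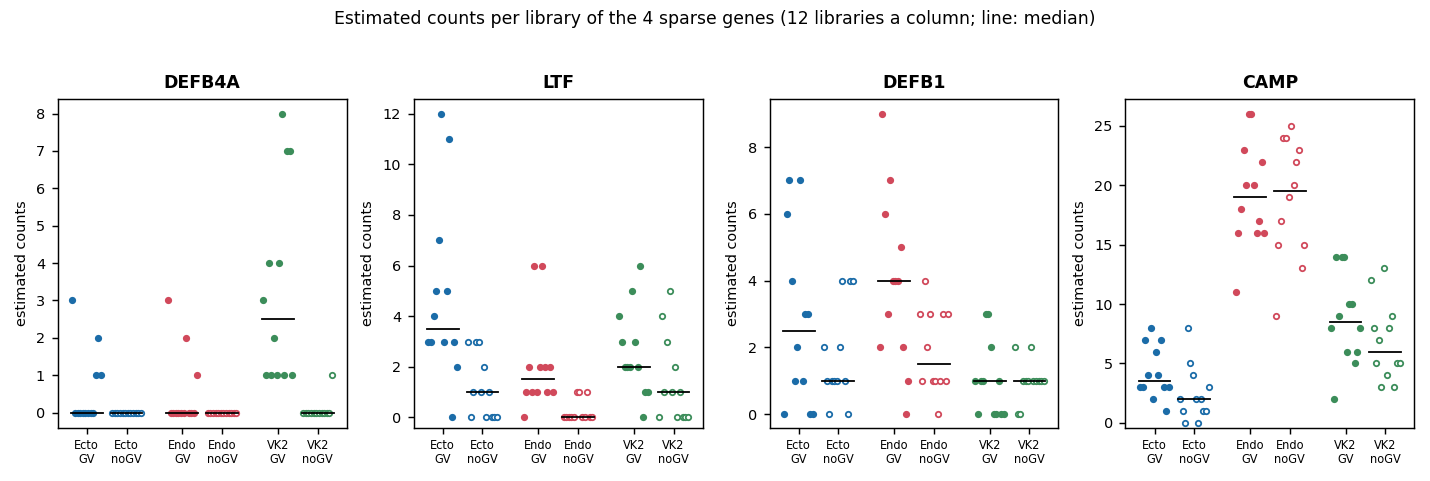
Estimated counts per library of DEFB4A, LTF, DEFB1 and CAMP, with GV libraries (filled) left of noGV libraries (open) in each line, and the median as a line. DEFB4A is above 0 in all 12 VK2 GV libraries and in 1 of 12 VK2 noGV libraries.

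Genes of the same pathways were read from lists of other acute-phase proteins, other antimicrobial proteins, upstream signalling and receptors or targets. For a gene that passes the filter only through GV libraries, being tested and rising with GV are not separate facts. Such genes were not set apart in these lists. The upstream gene IL6, for example, averaged 0.172 CPM in Endo NT+noGV libraries and 5.01 CPM in Endo NT+GV libraries. Of 20 other acute-phase genes, 9 were tested in Ecto, 6 in Endo and 7 in VK2. With GV alone 7, 6 and 6 of them rose and 0 fell, where 20.9%, 25.7% and 13.9% of all genes rose. The list had median log2 fold changes of 1.15, 3.11 and 2.06 in those lines, beside 0.00 over all genes. C3, the central complement component, averaged 45.5 ± 1.9 CPM in Endo NT+GV libraries and 0.798 ± 0.21 CPM in NT+noGV libraries (SD, n = 3 each), a log2 change of 5.75 (SE 0.11, adjusted p = 6.7e-27 by edgeR). In Ecto and VK2 the C3 changes were 1.15 (SE 0.06) and 2.48 (SE 0.08). Complement factor CFB rose by 3.42 in VK2, 1.51 in Ecto and 4.24 in Endo, and the protease C1S by 1.77 in VK2, 0.74 in Ecto and 2.95 in Endo on the log2 scale. With PUT and GV, 6, 6 and 4 of these genes fell and 1, 0 and 1 rose in Ecto, Endo and VK2. Of all genes, 56.3%, 56.1% and 60.4% changed. In the same order of lines, C3 fell by 0.91, 1.47 and 0.83 on the log2 scale, and the protease inhibitor SERPINA1 by 0.56, 1.42 and 1.09. With SPM and GV, 3, 1 and 2 rose and 5, 1 and 3 fell in that order, where 56%, 43% and 58.3% of all genes changed. The pentraxin PTX3 rose in Ecto (2.38, SE 0.15) and VK2 (4.52, SE 0.13), and C3 fell in Ecto by 0.74 and in VK2 by 0.33 and rose in Endo by 0.22. C1S rose in Ecto (1.17, SE 0.11) and VK2 (0.86, SE 0.10), and its 0.16 in Endo did not pass the test. With SPD and GV, 1 fell in Ecto, 4 in Endo and 3 in VK2 and 0 rose, where 13.1%, 13.9% and 12.7% of all genes changed. C3 fell by 0.28 in VK2, 0.29 in Ecto and 0.50 in Endo.

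Of 31 other antimicrobial genes, 14 were tested in Ecto, 17 in Endo and 16 in VK2. With GV alone 9, 12 and 11 of them rose and 0 fell, where 20.9%, 25.7% and 13.9% of all genes rose. The calprotectin subunits, which bind zinc and manganese, rose by 1.85, 3.903 and 1.93 (S100A8) and by 0.99, 4.02 and 1.70 (S100A9) on the log2 scale in Ecto, Endo and VK2. The chemokine CCL20 rose by 2.83, 4.36 and 2.44. The values that follow for this list and the next keep the order Ecto, Endo and VK2. With PUT and GV, 5, 4 and 6 of the list rose and 5, 5 and 5 fell, where 56.3%, 56.1% and 60.4% of all genes changed. S100A9 fell by 0.88, 1.90 and 0.67 and S100A8 by 0.82, 1.56 and 0.39. CCL20 fell in Ecto by 1.51 and in Endo by 1.06 and rose in VK2 (0.62, SE 0.12). With SPM and GV, 5, 4 and 5 rose and 5, 4 and 5 fell, where 56%, 43% and 58.3% of all genes changed. CCL20 was among those that rose, with 0.66 (SE 0.07) in Ecto, 1.36 (SE 0.09) in Endo and 4.29 (SE 0.10, adjusted p = 3.8e-26 by edgeR) in VK2, where it averaged 64.6 ± 5.3 CPM in SPM+GV libraries and 3.10 ± 0.50 CPM in NT+GV libraries. The peptides ADM (1.91, 0.93 and 1.81) and LEAP2 (2.09, 0.88 and 2.402) rose as well, and the Endo LEAP2 value without NT+GV replicate 1 was 0.66 (adjusted p = 0.067). With SPD and GV, 1, 0 and 1 rose and 0, 1 and 4 fell, where 13.1%, 13.9% and 12.7% of all genes changed.

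Of 20 upstream signalling genes, 19 were tested in each line. With GV alone 15 rose in each, with 1 falling in Ecto, 1 in Endo and 0 in VK2. Of all genes, 20.9%, 25.7% and 13.9% rose. The NF-kB inhibitor NFKBIA rose by 0.98, 1.08 and 0.83, TNFAIP3 by 0.99, 2.45 and 1.90 and the epithelial transcription factor ELF3 by 1.46, 1.60 and 1.16 on the log2 scale. With PUT and GV, 2, 2 and 6 rose and 12, 11 and 8 fell, where 56.3%, 56.1% and 60.4% of all genes changed. IL1A fell by 1.19, 0.86 and 0.45 and IL1B by 0.54, 0.55 and 0.64, while ELF3 rose (2.02, 1.30 and 1.76). With SPM and GV, 10, 11 and 13 rose and 4, 0 and 3 fell, where 56%, 43% and 58.3% of all genes changed. NFKBIA averaged 338 ± 39 CPM in Ecto SPM+GV libraries and 113.9 ± 3.5 CPM in NT+GV libraries, and its log2 fold changes were 1.63 (SE 0.07), 1.23 (SE 0.04) and 2.00 (SE 0.06) in Ecto, Endo and VK2. IL1A (0.40, 0.64 and 1.15) and SOCS3 (1.39, 0.29 and 1.48) rose too. With SPD and GV, 4, 1 and 1 rose and 1, 4 and 2 fell, where 13.1%, 13.9% and 12.7% of all genes changed. Of 10 receptors or targets of the secreted proteins, 4 were tested in each line. With GV alone 1 rose and 1 fell in each, where 44.6%, 54.4% and 26.4% of all genes changed. With PUT and GV, 1 rose in each and 3, 3 and 2 fell (56.3%, 56.1% and 60.4% of all genes). With SPM and GV, 1, 2 and 1 rose and 2, 1 and 2 fell (56%, 43% and 58.3%). With SPD and GV, 1, 0 and 1 rose and 1, 1 and 0 fell (13.1%, 13.9% and 12.7%). SLC22A17, a receptor for LCN2, rose with PUT and GV by 1.92, 1.02 and 0.79 in Ecto, Endo and VK2, SCARB1, a receptor that takes up serum amyloid A, fell by 1.01, 0.98 and 0.72, and EGFR fell by 0.74, 0.63 and 0.85, in the same order. EGFR also fell with GV alone in Endo (-0.72) and VK2 (-0.34), while its -0.17 in Ecto did not pass the test. With SPM and GV its changes were -0.28, -0.18 and -0.61. The Ecto one was lost without single libraries, with an adjusted p up to 0.13 by edgeR.

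Across the 24 group means, each centred on its line, the genes fell into patterns. These are given as descriptions, since the groups of a line share the mean on which they are centred. SAA1 and SAA2 were most alike (Pearson r = 0.98 of log2 CPM), followed by SAA1 and LCN2 (0.95) and SLPI and PI3 (0.95). SAA1 shares 51.0% of its 31-base words with SAA2, and the part of the read split in their r was not tested. RNASE7 stood apart, with r = 0.015 to SLPI, 0.21 to PI3 and at most 0.46 to the others. Among 16963 genes, those most like SAA1 were SAA2, TAPBP, S100A9, TNIP1 and ADAM8, and those most like SAA2 were IL36G, SAA1, TNIP1, ADAM8 and S100A8. Those most like LCN2 were S100A8, ADAM8, IL36G, C3 and EBI3 (r of 0.98 to 0.97). Those most like SLPI were ADGRE5, IL27RA, PCDH12, TMEM50A and PGF (0.96 each). For RNASE7 they were FGD6, YTHDC1, LINC03009, NFKB1 and SBDS, at r of 0.87 to 0.85.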

How the data were processed

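Stranded total RNA libraries with molecular identifiers were prepared after ribosomal depletion from 72 samples. The authors quantified reads with Salmon against release 44 (GRCh38.p13) and deposited estimated counts per gene, imported with tximeta. The deposited estimated counts are whole numbers, and whether reads were collapsed by identifier is not given in the sources used here. Groups came from the sample labels.

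From these counts, edgeR 4.0.16 in R 4.3.3 was fitted to the 24 libraries of each line with 8 groups (TMM normalization, filterByExpr with a minimum count of 10 and a minimum total of 15, robust quasi-likelihood). Tested genes numbered 19459 in Ecto, 18741 in Endo and 18474 in VK2, and p-values were adjusted over all of them by Benjamini-Hochberg. Differences between lines came from 1 model over 72 libraries and 21195 genes. The SE is the log2 fold change divided by the root of the F statistic. A gene was called at an adjusted p under 0.05. Depth, in estimated counts per library, set the counting precision.

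The 10 genes and the lists were chosen with earlier results of these data known. All 10 genes were described whatever their values, with up to 3 genes of each list with the smallest adjusted p in any line, and the 5 genes with the highest correlation over the 24 line-centred group means of log2(CPM + 0.1). The genes most like PI3 are not reported here. Differences between lines were described where they passed the test and reached 2 on the log2 scale, or where the gene rose in one line and fell in the other. Those of SLPI and PI3 with PUT and GV were given as well. Alternatives were DESeq2 1.42.0, its size factors in edgeR, no filter on low counts, SAA1 and SAA2 summed, a replicate block, and leaving out libraries. On simulated data built on the Ecto NT+GV against NT+noGV comparison (18459 genes tested), edgeR found 90 of 99 genes changed 2-fold and 97 of 97 changed 4-fold. DESeq2 found 81 of 100 and 96 of 100. For the Endo minus Ecto difference of the GV response, edgeR found 75 of 97 and 89 of 95, with 11 false calls. The simulation gave every gene the same dispersion, so it does not show the power for sparse, more variable genes such as SAA2 and CAMP.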

Additional observations from a re-analysis of the deposited data

Results flagged for a closer look

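The response to G. vaginalis alone differed between lines, by the interaction test of edgeR over all 72 libraries. On the log2 scale it was larger in Endo than in Ecto by 2.80 for SAA1, 2.098 for LCN2 and 4.23 for SAA2, and larger in Endo than in VK2 by 3.63 for SAA2, whose values rest on 3 counts in Endo NT+noGV libraries.

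The effect of SPM with GV had opposite directions between lines for PI3 (VK2 minus Ecto 0.83, Endo minus VK2 -0.78) and for LCN2 (Endo minus Ecto 0.71), by the same test. The effect of SPD with GV had opposite directions for RNASE7 (Endo minus Ecto -0.63, VK2 minus Ecto -0.66). Both RNASE7 differences lost their call with replicate 3 left out of every group (-0.63, adjusted p = 0.19, and -0.69, adjusted p = 0.057, by edgeR), and the Endo minus Ecto one also without replicate 1 (-0.68, adjusted p = 0.069).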

How the results depend on the processing

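The number of the 10 genes called with GV alone, with PUT and GV, and with SPM and GV stayed within 1.5 times in each line under every alternative run. Over all alternatives, 460 counts stayed within that range and 59 did not. For the single genes followed across settings, 2817 values kept their direction and side of the threshold, 104 lost the call, 1 gained it and 13 changed sign.

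Counts that moved were small. For the SPD interaction, 1 gene in Ecto became 2 with DESeq2 size factors and 3 without the filter, with the replicate block and in DESeq2. In Endo 0 became 1 without the filter and with the replicate block, and in VK2 0 became 1 under those and in DESeq2. For SPD without GV in Ecto, 0 became 2 without the filter and in DESeq2. For SPM without GV in Endo, 1 became 0 with DESeq2 size factors, without the filter and in DESeq2. For SPM against SPD without GV in Endo, 0 became 1 with the replicate block. The Endo minus Ecto count for SPD with GV was 1 and became 2 without the filter. The Endo minus VK2 count for SPM with GV was 2 and became 4 with the replicate block within line and in DESeq2. The cause was not tested.

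Leaving out libraries gave 1 to 2 genes for the SPD interaction in Ecto, 1 to 2 for SPD with GV in Ecto and in VK2, 2 to 4 in Endo, 0 to 1 for SPD without GV in Ecto, 1 to 3 for SPM without GV in Ecto, 0 to 1 in Endo and in VK2, 3 to 5 for PUT without GV in VK2, and 1 in each case for SPM against SPD without GV in VK2. Between lines it gave 2 to 4 for Endo minus Ecto with PUT and GV, 0 to 1 with SPD and GV and 2 to 3 with SPM and GV. For VK2 minus Ecto it gave 1 to 3 for GV alone, 1 to 2 with PUT and GV and 0 to 1 with SPD and GV, and for Endo minus VK2 1 in each case with SPM and GV.

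All 13 sign changes were of values that no fit called. Leaving out single libraries gave CAMP with GV alone -0.16 to 0.16 in Endo and -0.40 to 0.40 in VK2, CAMP in VK2 -0.38 to 0.42 with SPD and GV and -0.37 to 0.43 with SPM and GV, SLPI in VK2 with SPD and GV -0.011 to 0.050, and SAA2 in VK2 with SPM and GV -0.14 to 0.038. In VK2, CAMP with GV alone was -0.014 with the replicate block, and CAMP with SPM and GV was 0.020 in DESeq2.

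Over all genes, calls for SPD without GV were 59 in Ecto, 34 in Endo and 85 in VK2. Without the filter they were 1073, 141 and 164, and in DESeq2 296, 133 and 136, and with the replicate block 90 in Ecto and 241 in Endo. For the SPD interaction, 609, 647 and 65 calls became 1341, 1035 and 214 in DESeq2. Without the filter they were 1228 in Ecto and 197 in VK2, and with the replicate block 1449 in Endo and 157 in VK2.

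The replicate numbers were not taken as pairs in the main fit. Of 81 pairs of same-numbered libraries, the correlation of deviations was between -0.06 and 0.11, 2 were over 0.1, and 45 libraries correlated best with their own number. With the replicate block, more of all genes were called in each comparison within a line, for example 3560 in place of 2611 for SPD with GV in Endo. Whether same-numbered libraries share a batch was not tested. Beside the counts given above, the replicate block changed the call of 1 of the single genes followed across settings, SLPI in Endo with PUT and GV (0.09, adjusted p = 0.023 by edgeR). DEFB4A and DEFB4B summed did not pass the filter, so that alternative gave no value. DEFB1, DEFB4A and LTF are limited by depth, with at most 12 counts in any library.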
